A study of Xenopus tropicalis with 132 samples.

Results

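The regions described here are stretches of the Xenopus tropicalis genome that were listed as open chromatin in both stage 16 (neurula) libraries and in none of the libraries of earlier whole embryos. They were chosen by merging the peaks of both stage 16 replicates wherever these overlapped, keeping the merged regions that held a peak of each replicate, and removing every region that shared 1 bp or more with a peak of stage 9, stage 10.5 or stage 12. This left 14896 regions of 56129 stage 16 regions held by both replicates, and of 164062 merged regions in all 12 peak lists of the series. The study, of 132 samples, profiled open chromatin by ATAC-seq in whole embryos of stage 9 (blastula), stages 10.5 and 12 (gastrula) and stage 16, and in 2 kinds of explant labelled stage 10.5, the animal cap (AC) and the dorsal marginal zone (DMZ), with 2 libraries per group. The labels of these groups name no injection, mutation or drug. How many embryos or explants went into a library is not given in the labels, so p-values measure only the spread between libraries, which may be technical.

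In ATAC-seq a transposase inserts sequencing adapters into accessible DNA, and peaks mark promoters, enhancers and other sites where nucleosomes are displaced. Between the late blastula and the neurula the frog embryo lays down the germ layers and then forms neural plate, somites, notochord and epidermis. Enhancers are known to be taken into use in steps over this time. The animal cap is the prospective ectoderm, and the dorsal marginal zone holds the organizer and the axial mesoderm. A library of a whole embryo averages over its tissues, so a site open in few cells and a site weakly open in many cannot be told apart. No sequence or nearby gene is given for the regions, because no genome of the build of the peak lists was used here. Coordinates are those of the authors' lists, whose build is not given in the sources used here.

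The share of stage 16 regions with no earlier peak was 26.5%, and the others fell into earlier steps. Of the 56129 regions, 12785 overlapped a stage 9 peak, 21914 had their first peak at stage 10.5, 6534 had it at stage 12, and 14896 had it at stage 16. The length of the lists differed along the same axis. Stage 9 replicates 1 and 2 listed 10204 and 19883 peaks. The stage 10.5 lists had 38241 and 68786, the stage 12 lists 46198 and 37506, and the stage 16 lists 112446 and 81806. The sequencing depth behind the lists is unknown. When the 6 lists of stages 10.5, 12 and 16 were each cut to the 37506 peaks of highest −log10 q, the authors' measure of peak significance, the length of the shortest of them, 2146 of 23924 regions had no earlier peak, or 8.97%. Of the 14896 regions, 1511 (10.1%) stayed in the set under this cut. They match 70.4% of the 2146, and the rest of the 2146 lay in regions with an earlier peak in the uncut lists. A cut only removes peaks, so none of the 14896 could gain an earlier peak. Staying depended only on the rank of their stage 16 peaks. When all 12 lists were cut to 10204 peaks, 233 of 7152 regions (3.26%) had no earlier peak, and 1 of the 14896 stayed. That region is among the 10 strongest. The count thus moved with list length, and how much of it reflects the depth of the stage 16 libraries was not tested. A peak of both stage 16 replicates was required: with the rule applied to a single stage 16 list, 30920 regions of replicate 2 or 56806 of replicate 1 had no earlier peak.

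The regions first open at stage 16 were weaker than the stage 16 regions with an earlier peak. The fold enrichment is the authors' value at a peak's summit, a ratio to the local background, and the highest peak of each replicate stands for a region. In stage 16 replicate 1 their median fold was 6.18 (middle 80% from 4.34 to 9.65), against 9.54 (5.26 to 20.3) in the stage 16 regions with an earlier peak. In replicate 2 their median was 5.94 (4.26 to 8.92), against 9.26 (5.21 to 21.6). Over all peaks of the stage 16 lists the median was 6.33 fold in replicate 1 and 6.68 fold in replicate 2. Of the regions first open at stage 16, 48.2% lay above this list median in replicate 1 and 34.2% in replicate 2. The median −log10 q was 7.76 in replicate 1 and 6.46 in replicate 2 for the regions first open at stage 16, against 16.1 and 14.1 for the others. Stage 16 lists chose these regions, so the values are a description with no test.

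**Figure D1:**
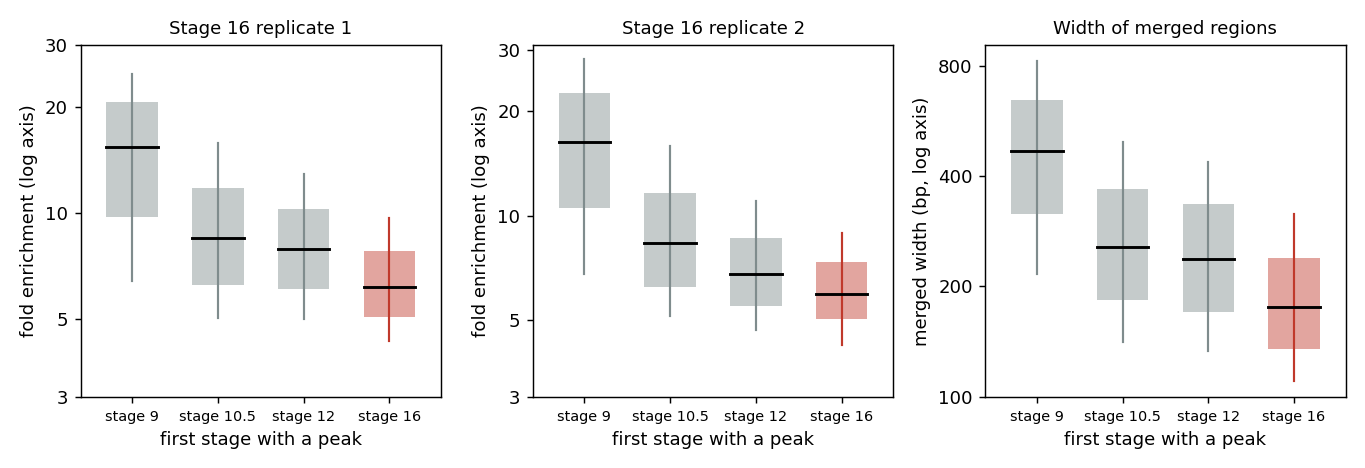
Fold enrichment of stage 16 regions in each replicate, and their merged width, by the first stage with an overlapping whole-embryo peak (all axes log). Boxes span the middle 50%, lines the middle 80% and black bars mark the median; the regions first open at stage 16 (red) had the lowest medians in each panel, at 6.18 and 5.94 fold and 176 bp.

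Strength stepped down with the stage of the first peak. Median fold in replicate 1 was 15.4 for regions first in a stage 9 list, 8.50 for stage 10.5, 7.89 for stage 12 and 6.18 for stage 16. In replicate 2 the same medians were 16.3, 8.36, 6.78 and 5.94. The middle 80% of the stage 12 regions, 4.99 to 12.9 in replicate 1, overlapped that of the stage 16 regions over most of its range. The same order shows when all stage 16 regions are ranked by fold and divided into 10 equal groups. In replicate 1, 51.5% of the weakest group and 0.303% of the strongest had no earlier peak. In replicate 2 these shares were 53.1% and 0.0713%, or 4 regions of 5613. Weak stage 16 regions thus lacked an earlier peak far more often than strong ones, and how far weak sites escaped the shorter earlier lists was not tested.

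**Figure D2:**
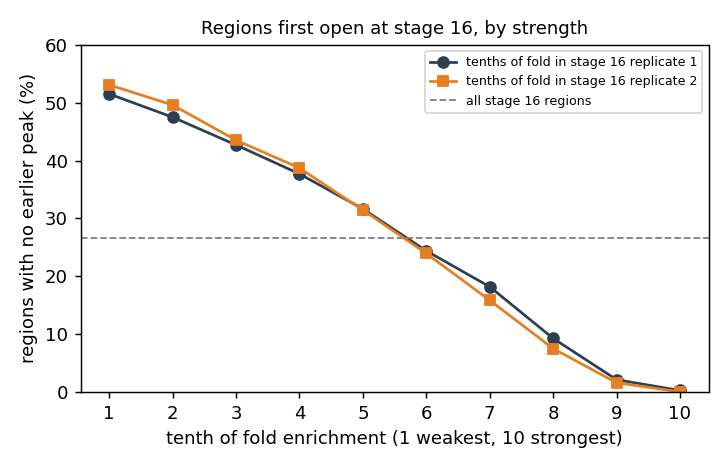
Share of stage 16 regions with no earlier peak (vertical axis, %) in 10 equal groups ranked by fold enrichment within each stage 16 replicate (horizontal axis). The share fell from the weakest group (51.5% and 53.1%) to the strongest (0.303% and 0.0713%); the dashed line marks 26.5% over all regions.

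The rule required overlapping peaks of both stage 16 libraries, so their summits had to lie close. The summits of the replicates lay a median of 27 bp apart, and 74.0% lay within 50 bp, against 27 bp and 72.4% in the regions with an earlier peak. Spearman's rho of the fold between replicates, across regions, was 0.204 for the regions first open at stage 16 and 0.670 for the others. These points share their libraries, and the range of fold was narrower in the first set. A peak of a single replicate was common beside them: 41426 merged regions held a peak of replicate 1 alone and no earlier peak (median fold 5.26), and 15108 held one of replicate 2 alone (median fold 5.25). These are not among the 14896.

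The strongest regions stood far above this median. The 10 with the highest value of the lower of both replicates' folds ranged from 12.9 to 19.4 fold in replicate 1 and from 13.1 to 15.7 fold in replicate 2. The first of them, Chr03:38466105-38466429, had 16.4 fold in replicate 1 and 15.7 fold in replicate 2, and lay 373 bp from the nearest earlier peak. The region Chr07:21730251-21730560 had 19.1 and 15.1 fold and lay 33531 bp from any earlier peak. The region Chr08:10243493-10243717 had 19.4 and 14.6 fold, with summits 2 bp apart in the replicates and the nearest earlier peak at 29763 bp. The region Chr09:76970952-76971232 had 13.8 and 14.4 fold and lay 1984 bp from another region of the set. The 10 held no DMZ peak, and 2 of them held a peak in AC replicate 2, with 6.59 fold at Chr08:10243493-10243717 and 7.72 fold at Chr07:24233820-24234043. Over all 14896 regions, 0.356% had a peak in a DMZ list, against 25.4% of all stage 16 regions. For AC replicate 2 these shares were 6.22% and 44.9%. With the lists of stages 10.5, 12 and 16 at equal length, these 10 regions stayed in the set. That follows from the rank of their stage 16 peaks, since a cut adds no earlier peak. It says nothing about openness at earlier stages.

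The 1511 regions that stayed in the set at equal length had a median of 9.46 fold in replicate 1 and 8.54 fold in replicate 2 in the uncut lists. Their lowest values were 5.74 and 5.73 fold, since the cut removed weaker peaks. Their median width was 236 bp. Of these 1511 regions, 1303 (86.2%) had a peak in no explant list, against 49.4% of all stage 16 regions in the uncut lists. AC replicates 1 and 2 held peaks at 73 (4.83%) and 163 (10.8%) of them, against 39.2% and 44.9% of all stage 16 regions. DMZ replicates 1 and 2 held peaks at 2 (0.132%) and 10 (0.662%), against 19% and 21.7% of all. The regions compared with include weak ones that the cut removes, so the sets differ in strength. The rule also fixes the direction of these contrasts, which are a description with no test.

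Width was also lower in the regions first open at stage 16. Their merged width had a median of 176 bp (middle 80% from 110 to 316 bp), against 298 bp (148 to 636 bp) in the regions with an earlier peak. The peaks of replicate 1 were wider than those of replicate 2, with medians of 147 and 118 bp within the regions first open at stage 16. The regions with an earlier peak were likewise wider in replicate 1. Over all peaks of the stage 16 lists the median width was 150 bp in replicate 1 and 144 bp in replicate 2. In 97.7% of the regions first open at stage 16, 1 peak of each replicate made the region, against 89.1% of the others. Broad regions were rare: 152 (1.02%) were wider than 500 bp, against 8202 (19.9%) of the others. The narrowest of them measured 73 bp.

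The widest regions differed between the replicates in extent. The first of them, Chr08:7325840-7326669, measured 830 bp, with a peak of 830 bp in replicate 1 and of 260 bp in replicate 2. The next, Chr08:3741075-3741866, spanned 792 bp in replicate 1 and 80 bp in replicate 2, with 12.7 and 4.72 fold. In the opposite direction, Chr08:111563048-111563799 spanned 539 bp in replicate 1 and 752 bp in replicate 2, with 6.58 and 13.99 fold. The other 2 of the 5 widest regions had peaks of at least 495 bp in both replicates. The first pair was thus wide in replicate 1 alone, and the last 3 were wide in both.

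The explant lists took no part in the choice of the regions and show which of these sites were already listed as peaks in AC or DMZ at stage 10.5. Few were listed there, and absence from a list does not show that a site was closed. The peak lists hold no expression values, so the explant labels were not checked against marker genes here. A peak of AC replicate 1 overlapped 397 of the 14896 regions, or 2.67% (exact 95% interval 2.41 to 2.94%), where 39.2% of all stage 16 regions had one. AC replicate 2 overlapped 927, or 6.22% (5.84 to 6.62%), where the share over all stage 16 regions was 44.9%. DMZ replicate 1 overlapped 22, or 0.148% (0.0926 to 0.224%), where 19% of all stage 16 regions had one. DMZ replicate 2 overlapped 33, or 0.222% (0.153 to 0.311%), against 21.7% over all. The intervals cover counting error only.

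In the AC lists the mean share was 4.44 ± 2.52% of the regions first open at stage 16, against 55.6 ± 4.62% of the regions with an earlier peak (SD, n = 2 libraries). In the DMZ lists it was 0.185 ± 0.0522%, against 27.6 ± 2.54% (SD, n = 2). These values are a description with no test, because the rule fixes their direction. Regions first open at stage 16 were chosen for having no whole-embryo peak at stage 10.5, the stage of the explants, and most of the others for having one at stage 9 or 10.5.

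The regions first listed at stage 12 are the closest comparison, since they too had no peak in whole embryos of stages 9 and 10.5. AC replicates 1 and 2 held peaks at 2.67% and 6.22% of the regions first open at stage 16, against 7.51% and 13.5% of those first listed at stage 12. DMZ replicates 1 and 2 held peaks at 0.148% and 0.222%, against 0.383% and 0.566%. The share was lower at the stage 16 regions in 4 of 4 libraries, with a mean difference of −3.18 percentage points (exact test over sign changes, two-sided p = 0.125, the smallest it can give). The rule itself divided these sets by a peak at stage 12, a gastrula stage like that of the explants. The test cannot tell the lower share apart from that choice. Among regions of like strength the AC order was the same, in each of the 9 weaker groups of fold in stage 16 replicate 1 and in both AC libraries. In the fifth and the sixth group, AC replicate 2 peaks overlapped 7.15% and 9.49% of the regions first open at stage 16, against 13.2% and 12.7% of those first listed at stage 12. In AC replicate 1 the shares in these groups were 3.15% and 2.99%, against 7.14% and 8.42%. In the strongest group the order turned round: AC replicates 1 and 2 held peaks at 23.5% and 35.3% of 17 regions first open at stage 16, against 6.67% and 21.7% of 60 first listed at stage 12. The DMZ shares by group had no steady order. In DMZ replicate 1 the second group had 0.150%, the fourth 0.236% and the ninth 0.820% for the regions first open at stage 16. Those first listed at stage 12 had 0, 0 and 0.532%. The strongest group had the same order, and all other groups the opposite one, as in the first, at 0.173% against 0.894%. In DMZ replicate 2 the share was lower at the regions first open at stage 16 except in the seventh, ninth and strongest groups. The ninth group held 122 regions first open at stage 16 and 376 first listed at stage 12, so single peaks weigh heavily there.

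**Figure D3:**
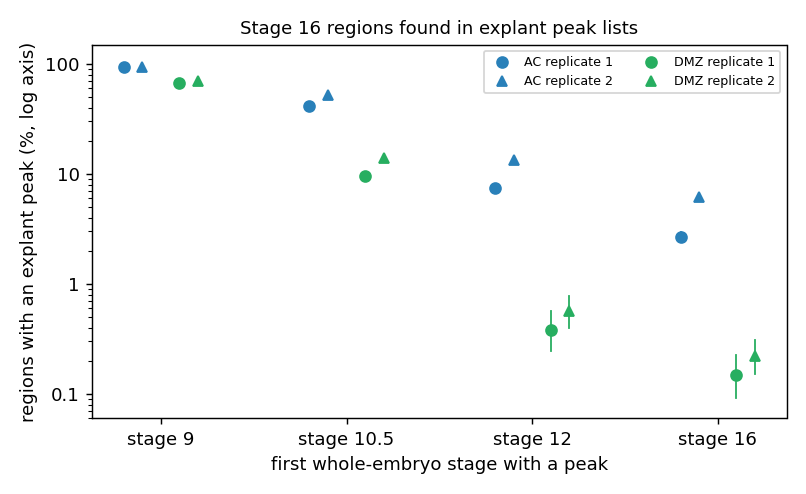
Share of stage 16 regions that overlap a peak of each AC and DMZ library (vertical axis, %, log), by the first whole-embryo stage with a peak. Symbols are single libraries and lines exact 95% intervals; for the regions first open at stage 16 the AC libraries sit at 2.67% and 6.22% and the DMZ libraries at 0.148% and 0.222%.

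**Figure D4:**
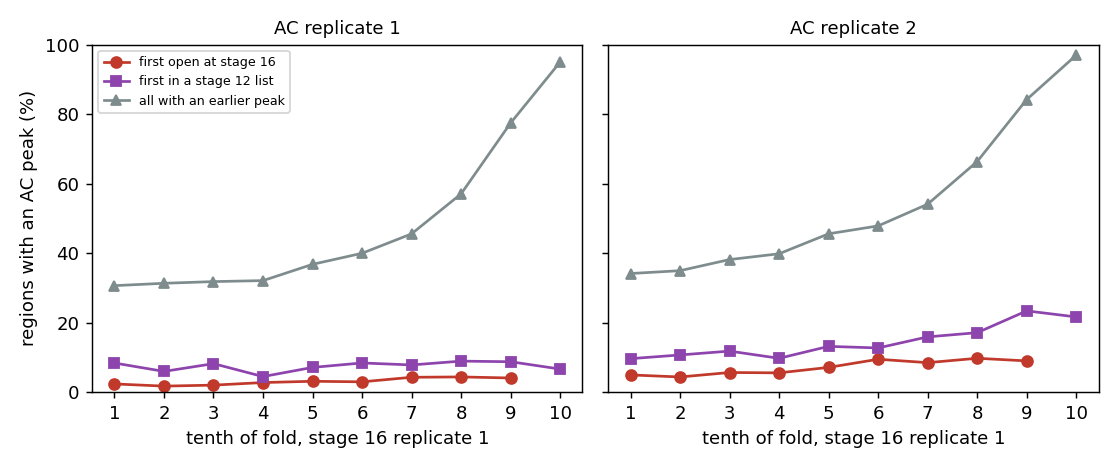
Share of regions with an AC peak (vertical axis, %) in 10 equal groups ranked by fold in stage 16 replicate 1 (horizontal axis), for each AC library; points of fewer than 20 regions are left out. Regions first open at stage 16 (red) lay below those first listed at stage 12 (purple) in each group drawn for both, and below all regions with an earlier peak (grey).

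The regions were met in AC lists more often than in DMZ lists, as were the stage 16 regions with an earlier peak. The AC minus DMZ difference was 28.0 percentage points for the regions with an earlier peak (mean shares 55.6% and 27.6%). It was 10.0 points for those first listed at stage 12 (10.5% and 0.474%). For the regions first open at stage 16 it was 4.26 points (4.44% and 0.185%), with both AC libraries above both DMZ libraries. Differences in points depend on the size of the shares. Taken as a ratio of AC to DMZ, the regions with an earlier peak had the lowest value. With 2 libraries against 2, an exact permutation test of the 4.26 points gave a two-sided p of 0.333, the smallest it can give. The difference was 2.23 points without stage 16 replicate 2, 2.48 points without AC replicate 2 and 7.63 points without stage 10.5 replicate 2. The AC lists were also longer, at 37443 and 42006 peaks, than the DMZ lists, at 14897 and 16087. Counting for each region the explant peak that shared the most bases with it, those at the regions made up 1.06% and 2.21% of the AC peaks. They made up 0.148% and 0.205% of the DMZ peaks. With every list cut to 10204 peaks the difference was 5.58 points (exact permutation p 0.667), from a set of 233 regions that shares 1 region with the 14896.

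Explant peaks at the regions were weaker than the same lists as a whole and recurred less often. In AC replicate 1 the 396 peaks that shared the most bases with a region had a median of 5.30 fold. The peaks at stage 16 regions with an earlier peak had 8.67 fold. In AC replicate 2 the 927 such peaks had a median of 5.61 fold, against 8.76 fold. Of the AC replicate 1 peaks at the regions, 34.3% overlapped an AC replicate 2 peak, against 88.1% at the regions with an earlier peak. For AC replicate 2 these shares were 14.5% and 78.2%. In DMZ replicates 1 and 2, 2 of 22 (9.09%) and 2 of 33 (6.06%) peaks recurred, against 77.3% and 68.0% at the regions with an earlier peak. Over all peaks of AC replicates 1 and 2 the medians were 6.85 and 7.02 fold, and 69.6% and 65.3% recurred. Over all peaks of DMZ replicates 1 and 2, 66.9% and 61.7% recurred. The rule bears on both contrasts, with the regions that have an earlier peak and with the whole lists. Only 10.7% and 13.3% of all AC peaks, and 2.99% and 3.58% of all DMZ peaks, overlapped no earlier whole-embryo peak. All values here are thus a description with no test.

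Counted by region, 13683 of the 14896 (91.9%) were in no explant list and 1213 (8.14%) in at least 1, where 50.6% of all stage 16 regions were. Both AC lists held 138 of them (0.926%), where they held 34.5% of all stage 16 regions. Both DMZ lists held 2, where they held 15.3% of all. No region had a peak in all 4 lists, where 14.9% of all stage 16 regions had one. None had peaks in both DMZ lists and no AC list, a pattern rare over all stage 16 regions too, at 0.128%. For 0 of 14896 the exact 95% interval reaches 0.0248%, which covers counting error only and not the spread between libraries.

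The 138 regions in both AC lists were slightly stronger at stage 16 than those in no explant list, with medians of 7.44 and 6.58 fold in replicates 1 and 2, against 6.15 and 5.91 fold. They were also nearer to earlier peaks, with a median gap of 1838 bp, against 4100 bp. Neither difference was tested. The strongest of them with no DMZ peak, Chr05:4580758-4580934, had 12.1 and 11.9 fold at stage 16, and 6.54 and 12.5 fold in AC replicates 1 and 2. The region Chr06:34726664-34726978 had 19.1 and 11.9 fold at stage 16, and 4.97 and 5.31 fold in AC. The region Chr08:22095855-22096256 had 11.03 and 10.6 fold at stage 16, and 4.96 and 6.75 fold in AC. The 5 strongest regions in both AC lists and no DMZ list lay 508 to 4816 bp from the nearest earlier peak.

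The 2 regions in both DMZ lists were picked out after their values were seen. On scaffold_618, the region at bases 31947 to 32154 had 32.4 fold in stage 16 replicate 1 and 5.51 fold in replicate 2, with 15.7 and 26.9 fold in the DMZ lists and 18.5 fold in AC replicate 2. It holds the highest replicate 1 value of all 14896 regions, and its stage 16 replicates do not agree in height. It lay 206 bp from an earlier peak. The other, Chr08:36896584-36896707, had 5.14 and 4.73 fold at stage 16 and 5.39 and 5.75 fold in the DMZ lists, with 6.45 fold in AC replicate 1.

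Seen from the explants, few peaks fell in these regions. Of the AC peaks, 4022 (10.7%) in replicate 1 and 5606 (13.3%) in replicate 2 overlapped no whole-embryo peak of stages 9 to 12. At least 1 stage 16 library listed 31.7% and 43.1% of these, and 9.75% and 16.6% overlapped regions first open at stage 16. Of the DMZ peaks, 445 (2.99%) and 576 (3.58%) overlapped no earlier whole-embryo peak, and 22 (4.94%) and 33 (5.73%) of these fell in the regions.

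Along the genome the regions lay among other open sites. The nearest stage 16 region of any kind was a median of 3822 bp away, against 1878 bp for the regions with an earlier peak, and lay within 10 kb for 72.2%, against 79.97%. Within 1 kb the shares were 21.1% and 37.2%. The nearest region of their own kind was 13337 bp away, against 2512 bp for the others, which are 41233 and so more densely placed. The nearest stage 16 region was itself first open at stage 16 for 36.4% of them, against 20.4% for the regions with an earlier peak, where 26.5% of all stage 16 regions are of this kind. These shares are a description of the regions chosen and were not tested.

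**Figure D5:**
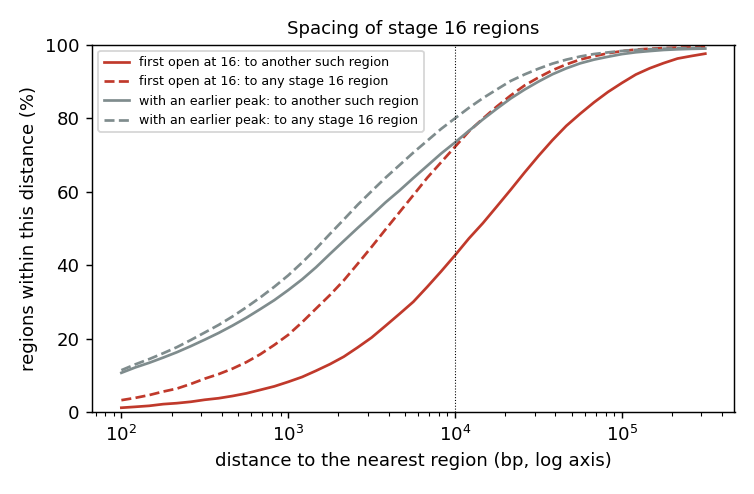
Cumulative share of regions (vertical axis, %) by distance to the nearest region (horizontal axis, bp, log), for regions first open at stage 16 (red) and regions with an earlier peak (grey), to their own kind (solid) or to any stage 16 region (dashed). At 10 kb (dotted line) the solid lines read 42.7% and 73.4%, and the dashed lines 72.2% and 79.97%.

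Joined across gaps of up to 10 kb, 8533 of the regions stood alone and 42.7% had another within that distance. There were 781 runs of 3 or more, which held 19.5% of the regions, and 134 runs of 5 or more, which held 5.33%. Of the regions with an earlier peak, joined among themselves in the same way, 53.4% lay in runs of 3 or more and 31.1% in runs of 5 or more. The largest run, Chr01:192285791-192335532, held 13 regions first open at stage 16 and 2 with an earlier peak in 49742 bp. Its members ranged from 4.90 to 9.83 fold in replicate 1 and from 4.24 to 10.7 fold in replicate 2, and 1 of them had an AC peak. The next 2 runs, each of 10 regions, were Chr02:137737587-137760843 and Chr02:139650736-139681313. A run of 9 lay at Chr08:29687643-29713016 and a run of 8 at Chr04:4067069-4093099. Within these 5 runs no region first open at stage 16 had a DMZ peak. Such peaks were rare in the whole set, at 0.356% of the 14896 regions, against 25.4% of all stage 16 regions. A peak in an AC list was found at 7.96% of the 14896 regions, against 49.5% of all.

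Regions in runs and regions alone had like strength. In runs of 3 or more the median fold was 6.18 in replicate 1 and 6.10 in replicate 2, against 6.21 and 5.85 in regions that stood alone, and the median width was 194 bp against 170 bp. They were found in AC lists less often, at 1.38% and 4.40% in AC replicates 1 and 2, against 3.25% and 6.94% of those alone. These shares compare places in the same libraries, and the difference was not tested.

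The regions were spread over the 10 chromosomes and the scaffolds. They made up 20.7% of stage 16 regions on chromosome 10, the lowest share of the 10, and 29.1% on chromosome 9, the highest. Chromosome 1 followed with 29.0%, and the unplaced scaffolds together had 22.3%. Per Mb up to the last listed peak there were 8.74 on chromosome 10 and 13.3 on chromosome 8, the ends of the range. Of 1268 windows of 1 Mb, 49 held no such region, the median window held 9, and the fullest held 49 of 111 stage 16 regions, at 68 to 69 Mb of chromosome 9. Across windows their number rose with the number of regions with an earlier peak (Spearman's rho 0.733, over 1268 windows of the same libraries). In the 976 windows with at least 20 regions their share had a median of 26.9%, with the middle 80% from 13.7 to 40.7%.

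Most of the regions were not close misses of the overlap rule. The nearest earlier peak lay a median of 3991 bp away, within 100 bp for 339 regions (2.28%), within 500 bp for 1740 (11.7%) and within 10 kb for 72.7%. In all, 51 regions lay over 100 kb from any earlier peak, and 87 were on a sequence with no earlier peak at all. Just inside the rule, the region on scaffold_98 at bases 439668 to 439787 touched an earlier peak without sharing a base, with 4.50 and 6.13 fold in replicates 1 and 2. The region Chr02:47679217-47679355 lay 2 bp from one, with 4.45 and 4.24 fold. Just outside it, Chr03:127249219-127249464 shared 1 bp with an earlier peak, with 5.26 and 3.91 fold, and Chr04:89901937-89902230 also shared 1 bp, with 6.76 and 6.49 fold. The 339 regions within 100 bp had medians of 5.58 and 5.63 fold, beside 5.26 and 5.77 fold for the 40 regions that overlapped an earlier peak by at most 10 bp.

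Single earlier libraries decided many regions. Of the 41233 regions with an earlier peak, 8982 (21.8%) had it in exactly 1 of the 6 earlier lists, with medians of 6.89 and 6.58 fold in stage 16 replicates 1 and 2. That single list was stage 10.5 replicate 2 for 3586 regions and stage 10.5 replicate 1 for 589. It was stage 12 replicate 1 for 3283 and stage 12 replicate 2 for 1448, and stage 9 replicates 1 and 2 for 17 and 59. Without stage 10.5 replicate 2 the set held 18482 regions and its mean share with an AC peak was 8.29%. Without stage 12 replicate 1 it held 18179 regions and the AC share was 5.49%. The 5248 regions with a peak in all 6 earlier lists had medians of 19.3 and 20.6 fold at stage 16.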

How the data were processed

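The 12 bulk ATAC-seq peak lists were used, 1 per library, with 2 libraries for each of stages 9, 10.5, 12 and 16, AC and DMZ. Per the submitters' processing notes, Bowtie2 and MACS2 were used, with no version given; read filters and the genome build are not given in the sources used here. The lists deposited by the authors hold a fold enrichment per peak, which is a ratio of its summit over local background, and −log10 of the p-value and q-value. No q column holds a −log10 value under 2. Lists are per library, not pooled, and their depth is unknown. Stage 16 peaks that overlapped were merged, and overlap with other lists meant at least 1 bp with a single peak (Python 3.11.15, pandas 2.3.3). Regions and overlaps were tested on simulated lists and checked against bedtools 2.31.1. Groups followed the sample titles.

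Explant shares were compared with exact permutation tests over libraries. The test against regions first listed at stage 12 and the equal-length lists of stages 10.5 to 16 were added after the data were seen. The regions and comparisons were chosen with earlier results of these data known. Named regions were those of the highest lower fold over both replicates (10), the strongest in both AC and no DMZ lists (up to 5), the widest (5), the largest runs (5) and those nearest to the 1 bp limit; not each of these is printed. The planned marker lists and gene names were not used, since the peaks were joined to no genes here. The RNA, single-cell and single-nucleus files were not used, the last because its chromosome names and coordinates differ from those of the peak lists. Alternatives tried were stricter peak thresholds, lists of equal length, other overlap and merging rules, and leaving out each library.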

Additional observations from a re-analysis of the deposited data

How the results depend on the processing

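The number of regions first open at stage 16 stayed within 1.5 times of 14896 in all but 5 alternatives. They were the limit of −log10 q on stage 16 peaks alone, both equal-length settings, and leaving out stage 16 replicate 1 (30920 regions) or replicate 2 (56806 regions). With stage 16 peaks of −log10 q of at least 5, there were 9253 regions (20.4% of stage 16 regions), with a median of 6.72 fold as the mean of both replicates and 31.1% within 10 kb of another. With that limit in all lists, the values were 28.2%, 6.81 fold and 38.5%. With every list at the length of the shortest they were 233 regions, 3.26%, 17.2 fold, 361 bp and 2.58%, with explant shares of 13.5% in AC and 7.94% in DMZ. With stages 10.5, 12 and 16 at 37506 peaks, chosen after seeing the data, they were 2146 regions, 8.97%, 9.16 fold, 238.5 bp and 12.6%, with 10.9% in AC and 0.629% in DMZ. Of these 2 equal-length sets, 1 of the 233 and 1511 of the 2146 regions overlapped one of the 14896. The rest had an earlier peak in the uncut lists. Requiring overlap of 50% of the shorter interval gave 27.2%, a margin of 500 bp gave 23.4% and 39.2% within 10 kb, and merging across 100 bp gave 27.2% and 41.7%. Distances of 5 kb and 25 kb in place of 10 kb gave 28.0% and 64.1%. Leaving out 1 library at a time gave 14913 to 56806 regions, 26.6% to 50.5% of stage 16 regions, 5.49 to 6.22 fold, 105 to 182 bp, 42.7% to 73.7% within 10 kb, 2.36% to 8.29% in AC and 0.129% to 0.660% in DMZ. The highest counts came without a stage 16 replicate, and the highest explant shares without stage 10.5 replicate 2. The AC minus DMZ difference was positive in every alternative run. Over the libraries left out it ran from 2.23 points without stage 16 replicate 2 to 7.63 points without stage 10.5 replicate 2. With stages 10.5, 12 and 16 at equal length, and the explant lists uncut, it was 10.2 points. Only the setting with every list at the length of the shortest evened the AC and DMZ lists. There it was 5.58 points (exact permutation p 0.667), and the AC libraries did not both lie above both DMZ libraries. With the replicate number as a block the difference was 4.26 points (exact permutation within pairs, p = 0.5, the smallest 2 pairs allow). Nothing in the labels says that equal numbers share a batch. The lists give no depth, so a site absent from a list may lie below its detection limit.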
